A study of Mus musculus with 62 samples.

Results

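Cwc22 and 8 annotated genes that share its sequence or overlap it, all on mouse chromosome 2, fell into separate levels between libraries of mouse cerebellum. The 9 members are Cwc22, Gm13727, Gm13698, Gm13697, Gm13696, Gm13695, Gm13694, Gm13693 and Gm13691. They were chosen by name from the 47643 gene symbols of the expression table, because their levels in these same 62 libraries were seen to fall apart whatever the treatment. The levels given here are therefore a description, and no p-value is given for the split itself. In 14 libraries Cwc22 was at 184 to 661 TPM (transcript abundance scaled so that each library has the same total), and in the other 48 libraries at 10.9 to 16.7 TPM. The same 14 libraries held nearly all of the signal of the 8 other members.

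Cerebellum RNA of female mice that the labels give as 2 months old was sequenced after injection of cachectic melanoma cells (CAC, 22 libraries), non-cachectic melanoma cells (NCAC, 20 libraries) or a mock injection (mock, 20 libraries), with tissue taken at 2, 4, 6 or 8 weeks (wk). The 3 treatments and 4 times make 12 groups of 5 libraries each, except CAC at 8 wk, which has 7. The labels disagree on the strain, which the sample fields give as C57BL6/J and the series design as NCI Ath/nude, and it is left undecided here. No melanoma line is named, and no library is tied to a named animal, so p-values measure the spread between these samples, which may be partly technical. Values are TPM, a level scaled for transcript length and for the total of each library. The depth behind them is unknown, so no counting interval is given.

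Cwc22 is a spliceosome protein. It binds the helicase EIF4A3 and brings it to the spliceosome, so that an exon junction complex can be placed on the spliced RNA. That complex marks exon junctions for export and for nonsense-mediated decay, the pathway that removes RNAs with premature stop codons. In house mice a segment of chromosome 2 that holds Cwc22 is known to vary in copy number between strains and wild populations, and high-copy forms of it have been studied for biased transmission through female meiosis. DNA was not measured in this series, so the number of gene copies that any of these mice carried is not known.

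The annotation of the mm10 build (GENCODE M21) places the members in a pair of clusters. Cwc22 lies at 77881159 to 77946375 of chromosome 2 on the minus strand, with 13 annotated transcripts of up to 21 exons. Gm13727, a non-coding processed transcript, lies at 77879753 to 77881467 on the same strand and overlaps the 3′ end of Cwc22 by 309 bases. Reads from the overlap cannot be told apart. The other 7 members form an array at 83955693 to 83993045 on the plus strand, 6.01 Mb beyond the end of Cwc22. Each copy is 2493 bases long, and neighbouring copies start exactly 5810 bases apart, in the order Gm13698, Gm13693, Gm13695, Gm13696, Gm13694, Gm13697 and Gm13691. GENCODE lists these copies as protein coding, whereas RefSeq lists them as pseudogenes. The function of the copies is not known from these annotations.

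Each array copy has an annotated single-exon transcript that spans the whole copy and carries Cwc22 sequence. Aligned to the longest annotated Cwc22 transcript (3471 bases), a copy starts at the Cwc22 start codon, base 391, and runs to base 2885, with 2474 aligned bases, 39 mismatches, 40 bases in gaps and 98.4% identity of the aligned bases. These transcripts of 6 copies are identical base for base. Gm13695 alone departs from them, at 1 base. The stretch of 120 bases with the most differences between Cwc22 and the copies is shown to let a reader see how alike they are. Capitals mark the 8 bases that differ. The copy stretch is chr2:83955903-83956022 (mm10, plus strand) in Gm13698, and the Cwc22 stretch is bases 598 to 717 of its transcript.
Cwc22: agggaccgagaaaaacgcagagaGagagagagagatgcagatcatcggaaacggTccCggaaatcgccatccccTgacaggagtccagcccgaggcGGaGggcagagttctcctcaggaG
Gm13698: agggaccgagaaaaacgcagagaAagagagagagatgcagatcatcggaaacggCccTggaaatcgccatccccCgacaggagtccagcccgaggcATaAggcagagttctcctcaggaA

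The base that sets Gm13695 apart is position 1280, counted from 1 at the 5′ end of the copy's transcript, where the identical copies and Gm13695 differ by A1280T. It lies in a run of GAG and GGA repeats that is 15 bases longer in the copies than in that Cwc22 transcript. These lines give 61 bases around it, 5′ to 3′, with the 15 bases that have no partner in the aligned Cwc22 transcript in capitals. The placing of such a gap within a repeat is not unique. None of the 13 annotated Cwc22 transcripts held the 15 bases together with 9 bases on each side. The stretches are chr2:83956942-83957002 in Gm13698 and chr2:83968562-83968622 in Gm13695 (mm10, plus strand), and bases 1637 to 1682 of the Cwc22 transcript.
Gm13698: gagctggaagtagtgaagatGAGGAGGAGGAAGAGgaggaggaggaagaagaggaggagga
Gm13695: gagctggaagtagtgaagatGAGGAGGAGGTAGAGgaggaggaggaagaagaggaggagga
Cwc22: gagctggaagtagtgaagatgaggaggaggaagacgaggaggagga
Because these sequences are so alike, RNA from Cwc22, from each annotated copy and from any further copy that the reference lacks cannot be told apart with certainty. How the authors shared reads among like sequences is not stated in any label or header at hand. The sum over members is therefore given beside the single genes.

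Across all 62 libraries ordered by level, the widest gap for Cwc22 lay between 16.7 and 184 TPM, a width of 3.39 on the log2(TPM + 1) scale. The 14 libraries above the gap differed by up to 3.59-fold, and the 48 below it by up to 1.53-fold. The highest library below the gap was CAC at 8 wk replicate 1, with 16.7 TPM, and the lowest above it was NCAC at 4 wk replicate 4, with 184 TPM. All 9 members and the sum of the 8 others put the same 14 libraries above their own widest gap. The 9 rows thus divided the 62 libraries in the same way.

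The 14 libraries came from all 3 treatments. They were 5 of 22 CAC libraries, 8 of 20 NCAC libraries and 1 of 20 mock libraries. At 2 wk, Cwc22 was at 221, 13.2, 11.8, 13.04 and 13.1 TPM in CAC replicates 1 to 5, at 537, 11.8, 11.5, 13.7 and 13.1 TPM in NCAC replicates, and at 14.7, 12.9, 13.5, 12.9 and 13.7 TPM in mock replicates. At 4 wk the values were 14.1, 14.4, 13.5, 377 and 12.6 TPM in CAC, 12.6, 12.4, 12.5, 184 and 229 TPM in NCAC, and 15.5, 10.9, 15.0, 11.5 and 12.6 TPM in mock. At both times 1 CAC library was high, and no mock library was.

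At 6 wk, Cwc22 was at 15.4, 11.01, 299, 15.5 and 539 TPM in CAC, at 12.8, 12.1, 413, 661 and 11.3 TPM in NCAC, and at 12.6, 14.1, 11.7, 12.02 and 12.6 TPM in mock. At 8 wk, the 7 CAC libraries ran from 12.6 to 221 TPM with a median of 13.96 TPM, while NCAC libraries were at 221, 14.8, 428, 196 and 12.8 TPM and mock libraries at 281, 15.0, 12.8, 11.9 and 11.6 TPM. The 8-wk mock library at 281 TPM, replicate 1, was the only mock library above the gap. It lay in the middle of the high range, with 7 of the 13 high CAC and NCAC libraries above it and 6 below. In every group at least 2 libraries were at the low level, so in every group that held a high library the levels of that group overlapped the other groups' low levels.

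**Figure D1:**
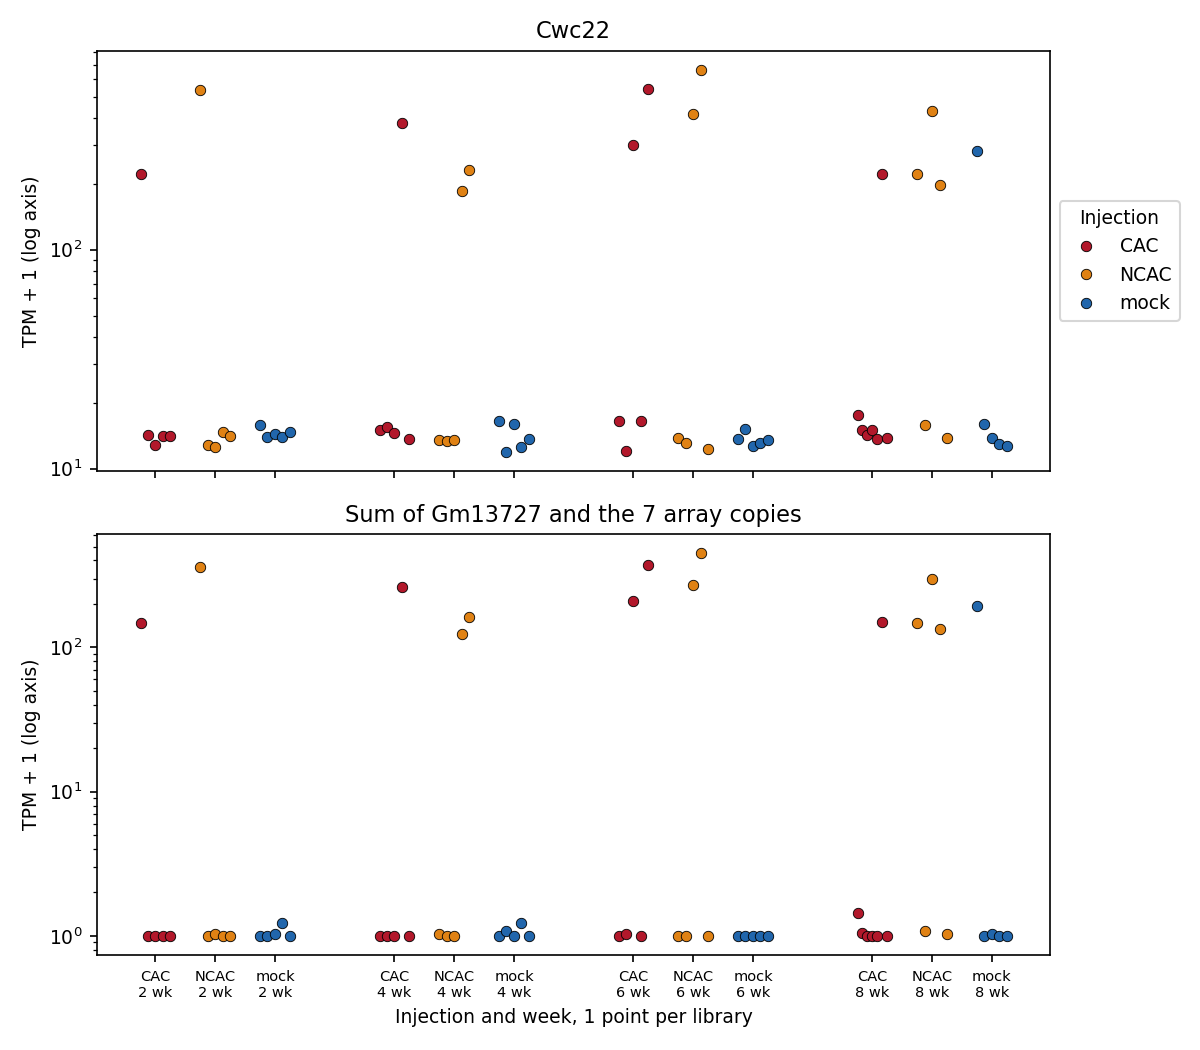
Each point is 1 library; the vertical axis is TPM + 1 on a log scale, for Cwc22 (top) and for the sum of Gm13727 and the 7 array copies (bottom), by injection and week. The same 14 libraries stand high in both panels, 5 from CAC, 8 from NCAC and 1 from mock, with no library between 16.7 and 184 TPM of Cwc22.

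The array copies were close to 0 outside the 14 libraries. Gm13698, the first copy of the array, was at 19.1 to 70.3 TPM in the 14 libraries and at 0 to 0.0375 TPM in the other 48, and was listed at 0 in 46 libraries. Gm13697 ran from 19.2 to 69.5 TPM in the 14 and reached at most 0.0359 TPM elsewhere. Gm13691, the last copy, ran from 19.6 to 70.6 TPM against at most 0.111 TPM. The other identical copies, Gm13696, Gm13694 and Gm13693, had their lowest high-side values between 18.3 and 19.9 TPM and their highest between 68.9 and 71.9 TPM. No range of an identical copy in the 14 libraries came near its range in the 48.

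Within a library the 6 identical copies had nearly equal levels. The highest of them exceeded the lowest by 1.04-fold to 1.16-fold over the 14 libraries. In NCAC at 6 wk replicate 4, the library with the most Cwc22, they lay between 68.9 and 71.9 TPM. In NCAC at 4 wk replicate 4, the high-side library with the least Cwc22, they lay between 18.3 and 20.9 TPM. Equal values of identical sequences carry no information on which copy was transcribed.

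Gm13695, the copy with the A1280T difference, was at 2.89 to 17.6 TPM in the 14 libraries and at 0 to 0.0381 TPM elsewhere. It was at 0.144 to 0.318 of the median of the 6 identical copies of the same library, with a median ratio of 0.211. The ratio varied more than that among the identical copies. Its highest values were 0.318 in the high mock library, 0.313 in NCAC at 2 wk replicate 1 and 0.301 in CAC at 6 wk replicate 3, and its lowest were 0.144 in NCAC at 8 wk replicate 1 and 0.149 in NCAC at 4 wk replicate 4. NCAC at 2 wk replicate 1 and CAC at 6 wk replicate 5 had almost the same Cwc22, 537 and 539 TPM, yet Gm13695 was at 17.6 TPM in that NCAC library and at 9.41 TPM in that CAC library.

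Gm13727, the transcript that overlaps the end of Cwc22, was at 2.21 to 9.59 TPM in the 14 libraries and at 0 to 0.432 TPM in the other 48. Its gap, 1.16 on the log2(TPM + 1) scale, was the narrowest of the 9. Cwc22 exceeded it by 37.5-fold to 113-fold within the 14 libraries, with a median of 62.7-fold. The highest low-side value, 0.432 TPM, was in CAC at 8 wk replicate 1, the library that also had the highest low-side Cwc22.

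Summed over the 8 members other than Cwc22, the level was 122 to 446 TPM in the 14 libraries and at most 0.432 TPM in the other 48, of which 36 were at 0. Cwc22 stayed in a nearly fixed ratio to that sum, between 1.42 and 1.54 with a median of 1.48, while both varied by more than 3-fold. The 14 libraries stood in the same order by Cwc22 and by the sum (Spearman rho of 1 over 14 libraries). Gm13697 followed Cwc22 with a rho of 0.996, Gm13695 with 0.899 and Gm13727 with 0.837. These figures share libraries, scaling and reads of like sequence, and are given as descriptions. Among the 48 low libraries the orders were unrelated, with a rho of 0.0368 for Gm13727 and -0.22 for Gm13698, at levels close to 0.

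**Figure D2:**
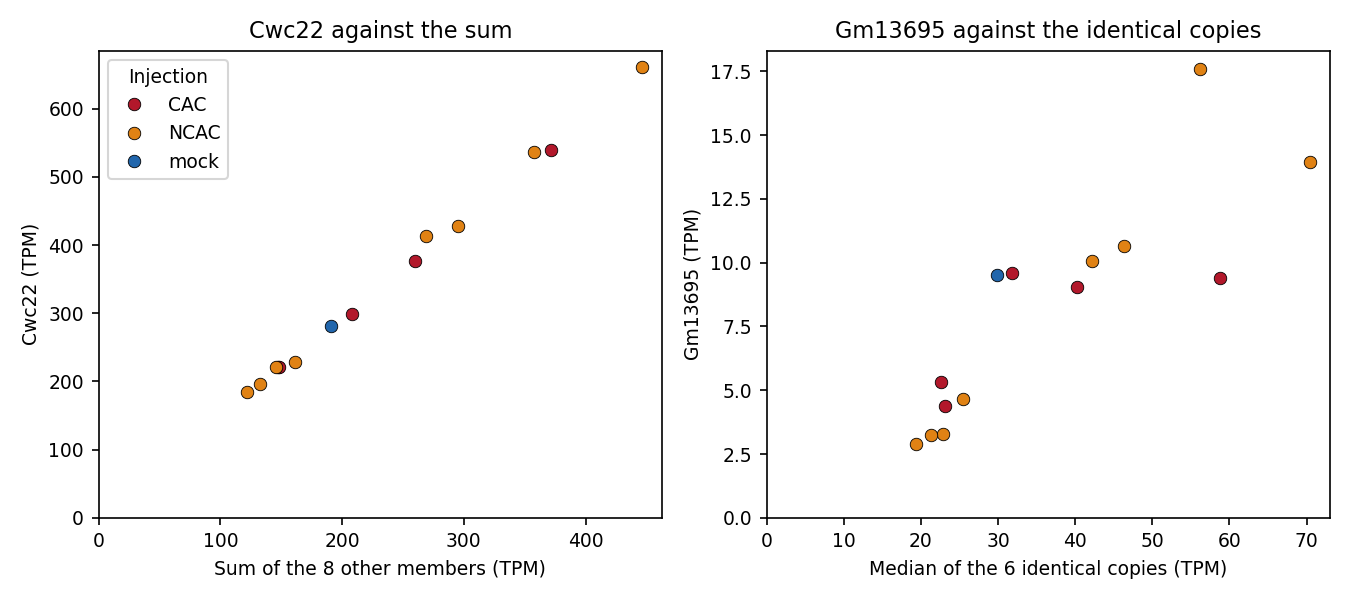
Each point is 1 of the 14 high libraries, coloured by injection, with linear axes in TPM. Left, Cwc22 against the sum of the 8 other members, in a ratio of 1.42 to 1.54; right, Gm13695 against the median of the 6 identical copies, in a ratio of 0.144 to 0.318.

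All 9 members together made up 0.0306% to 0.111% of the summed TPM of a library in the 14 and 0.00109% to 0.00171% in the other 48. The sum over all 9 was 306 to 1108 TPM in the 14 libraries, against 10.9 to 17.1 TPM in the others.

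Among 14399 symbols with a mean of at least 1 TPM, the members had some of the widest spreads within groups. The standard deviation of log2(TPM + 1) within the 12 groups was 1.92 for Cwc22, rank 17 from the top, and 2.16 to 2.19 for the identical copies, ranks 7 to 12. It was 1.33 for Gm13695 and 1.12 for Gm13727, against a median of 0.11 over all tested symbols. All 9 members passed the filter on the mean, and the 8 others did so only through the 14 libraries. The 12 groups took up 16.3% to 18.3% of the variance of each member, against a median of 25.5% over all tested symbols. With 12 groups, part of the variance of any row is taken up even where the groups do not differ. These shares are read only as a description, since the members were chosen on these levels.

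The study's own question, how cachexia from melanoma changes the tissue, was put to the members with limma on log2(TPM + 1), 2-sided, with Benjamini-Hochberg adjustment over all 14399 symbols. The choice of members used these levels, so the counts are printed beside the background and nothing is read from them. Over the mean of 4 weeks, 0 of 9 members were called in CAC against mock, where 23.0% of symbols were called, 0 of 9 in CAC against NCAC, where 20.9% were called, and 0 of 9 in NCAC against mock, where 0% were called. By week, 0 of 9 were called in CAC against mock at 2, 4, 6 and 8 wk, with backgrounds of 0%, 0.00694%, 1.72% and 20.8%. In NCAC against mock the counts were also 0 of 9 at each week, with backgrounds of 0.0139% at 2 wk and 0% at the later times. At an unadjusted p under 0.05, limma gave all 9 members in NCAC against mock over the mean of 4 weeks. There 573 of 14399 symbols did so, and in each of the other 10 comparisons 0 of 9 members did. The 9 rows carry the same split of the libraries and can share reads, so they are not independent results.

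Cwc22 had a log2 fold change of 0.89 ± 0.58 (SE) in CAC against mock over the mean of 4 weeks (limma adjusted p = 0.272). In NCAC against mock it was 1.57 ± 0.59 (SE; limma adjusted p = 0.9996, unadjusted p = 0.00982). In CAC against NCAC it was -0.68 ± 0.58 (SE; limma adjusted p = 0.426). The first array copy, Gm13698, gave 0.96, 1.81 and -0.85 on that scale in the same 3 comparisons. On a log2(TPM + 0.1) scale the Gm13698 values were 1.57, 3.00 and -1.43, so that their size rests on the pseudocount, while those of Cwc22 were 0.91, 1.60 and -0.69. These comparisons share libraries, and high libraries were 5 of 22 in the CAC mean, 8 of 20 in the NCAC mean and 1 of 20 in the mock mean. The members were chosen on these levels, so the p-values here are a description and nothing is read from them. Without mock at 8 wk replicate 1, the Cwc22 values were 1.11 in CAC against mock and 1.79 in NCAC against mock. Without NCAC at 2 wk replicate 1, the CAC against NCAC value was -0.42 for Cwc22 and -0.56 for Gm13698. At 8 wk, where that mock library stands, the CAC against mock value for Cwc22 was -0.21 ± 1.09 (SE), whereas at 6 wk it was 2.03 ± 1.17 (SE). The groups at 6 wk held 2 of 5 high CAC libraries and 0 of 5 high mock libraries, and those at 8 wk held 1 of 7 and 1 of 5.

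**Figure D3:**
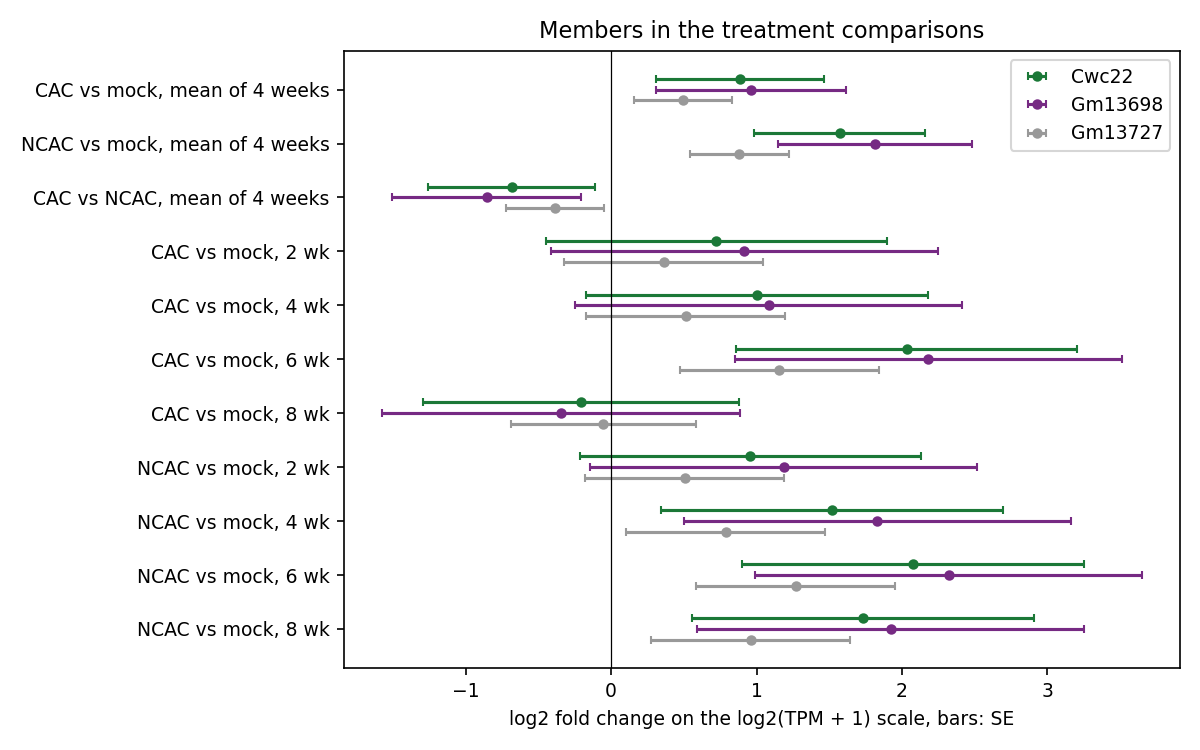
Log2 fold changes on the log2(TPM + 1) scale with standard errors from limma for Cwc22, Gm13698 and Gm13727 in the 11 comparisons. No member passed the adjusted threshold in any of them, and the standard errors of Cwc22 were 0.58 to 0.59 over the mean of 4 weeks.

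The tested symbols other than the members were then set beside the split. Those named were picked by their likeness to it in these same 62 libraries or by their place near the members. The measures of likeness were the number of the 62 libraries on the same side of the gene's own widest gap as of that of Cwc22, and the Spearman rho of deviations from the 12 group means. Closest to Cwc22 by both were Itgav and Tfpi, which lie on either side of the array. Itgav encodes the integrin alpha V subunit, a cell adhesion receptor chain. It lies at 83724397 to 83806916 of chromosome 2, 149 kb before the array, and had a rho of 0.79 with 60 of 62 libraries on the same side. Tfpi encodes an inhibitor of the tissue factor pathway of coagulation. It lies at 84432855 to 84476775, 440 kb after the array, with a rho of 0.73 and 60 of 62 libraries on the same side.

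Itgav was at 32.3 to 46.1 TPM in the 14 libraries that were high in Cwc22 and at 23.2 to 34.7 TPM in the other 48. Of the 14, 13 were above all 48. The exception was the high mock library, mock at 8 wk replicate 1, with 32.3 TPM, below CAC at 8 wk replicate 1 with 34.7 TPM and CAC at 8 wk replicate 7 with 32.4 TPM, both low in Cwc22. The 5 high CAC libraries were at 38.6, 41.1, 38.6, 36.5 and 46.1 TPM of Itgav, in the order of weeks and replicates. The shift was small beside that of Cwc22 and did not grade with it, since rho was -0.15 within the 14 libraries and 0.08 within the 48.

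Tfpi was at 3.22 to 5.67 TPM in the 14 libraries and at 1.67 to 3.52 TPM in the other 48. Of the 14, 12 were above all 48. The exceptions were NCAC at 8 wk replicate 4, with 3.22 TPM, and NCAC at 4 wk replicate 5, with 3.49 TPM, while mock at 2 wk replicate 2 reached 3.52 TPM at the low level of Cwc22. The high mock library was at 4.14 TPM of Tfpi. Within the 14 libraries the rho with Cwc22 was 0.26.

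Calcrl encodes the receptor that pairs with accessory proteins to bind calcitonin gene-related peptide and adrenomedullin. It is the nearest tested gene after the array, at a distance of 338 kb, and it ran the other way. Its rho with Cwc22 was -0.55, with 4.39 to 7.75 TPM in the 14 libraries and 5.31 to 10.8 TPM in the 48, ranges that overlap widely. On raw levels, without taking out the group means, that rho was -0.215. The library with the most Cwc22, NCAC at 6 wk replicate 4, had the least Calcrl (4.39 TPM) and the most Tfpi (5.67 TPM) of all. Fam171b, the nearest tested gene before the array at 72.2 kb, had a rho of 0.48 (0.307 on raw levels), with 103 to 115 TPM in the 14 and 93.9 to 119 TPM in the 48.

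**Figure D4:**
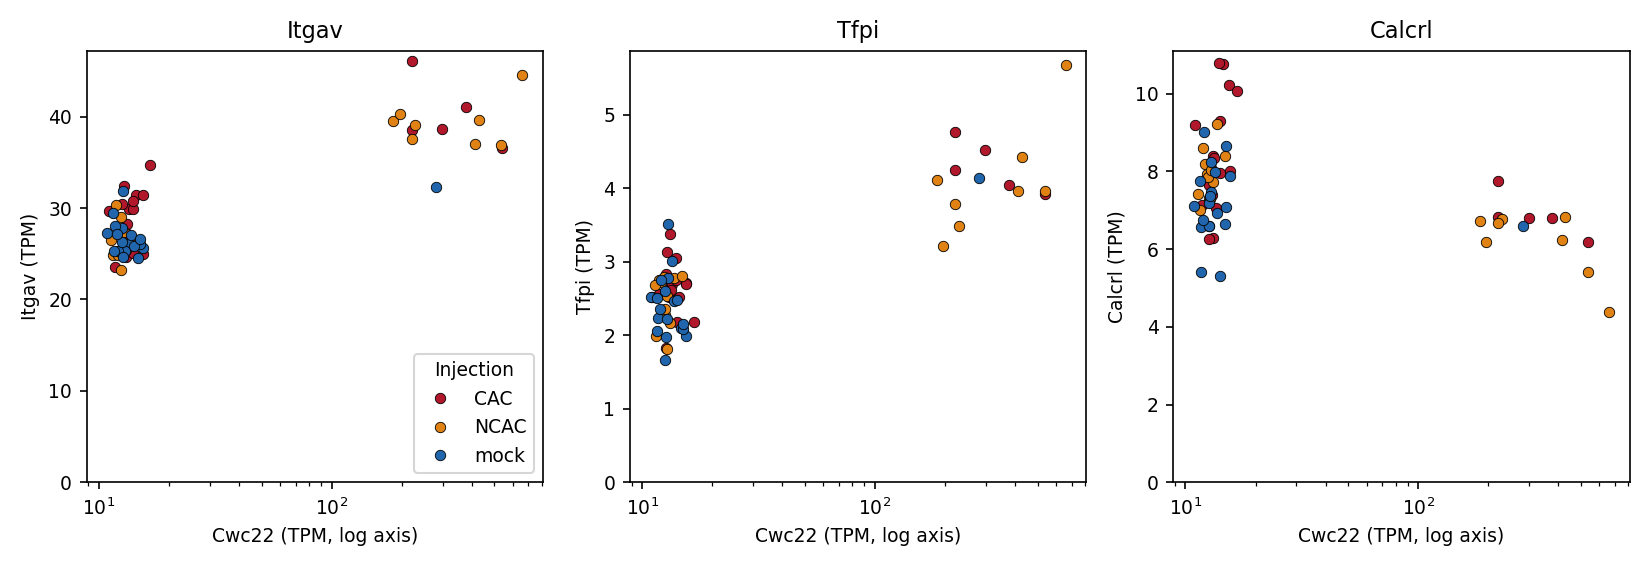
Itgav, Tfpi and Calcrl (TPM, linear axes from 0) against Cwc22 (TPM, log axis), 1 point per library, coloured by injection. Itgav lies above all 48 low libraries in 13 of the 14 high ones and Tfpi in 12 of 14, while Calcrl overlaps.

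Of the 15 tested symbols within 1 Mb of the array, 3 had an absolute rho of at least 0.5 with Cwc22 and 6 of at least 0.3. On raw levels 2 of them, Itgav (0.556) and Tfpi (0.548), reached 0.5. Of the 13 between 1 and 5 Mb away, none reached 0.3, the highest being 0.192. The farthest of them after the array was Lrrc55, at 1.17 Mb, so the window beyond it on that side held no tested symbol. Around Cwc22 itself, 0 of the 37 tested symbols within 5 Mb reached 0.5 and 2 reached 0.3. Those were Agps, an enzyme of ether lipid synthesis, with a rho of -0.33, and Hnrnpa3, an RNA-binding protein, with 0.32. They lie 1.95 and 2.21 Mb before the gene, in that order. The nearest tested neighbours of Cwc22 were Zfp385b, a zinc finger gene 60.1 kb before it, with a rho of -0.04, and Ube2e3, a ubiquitin-conjugating enzyme gene 922 kb after it, with 0.09. The windows around the clusters share 10 symbols. On other chromosomes 323 of 12762 tested symbols (2.53%) had an absolute rho of at least 0.3, and 4 of at least 0.5. On the rest of chromosome 2 it was 50 of 1079 (4.63%) and 2. The latter 2 were Gm13767 and Mtch2, which start at 90358171 and 90847155, after the array and outside its 5 Mb window. The neighbours most like Cwc22 were thus those of the array, and no neighbour of the Cwc22 gene reached the same likeness.

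**Figure D5:**
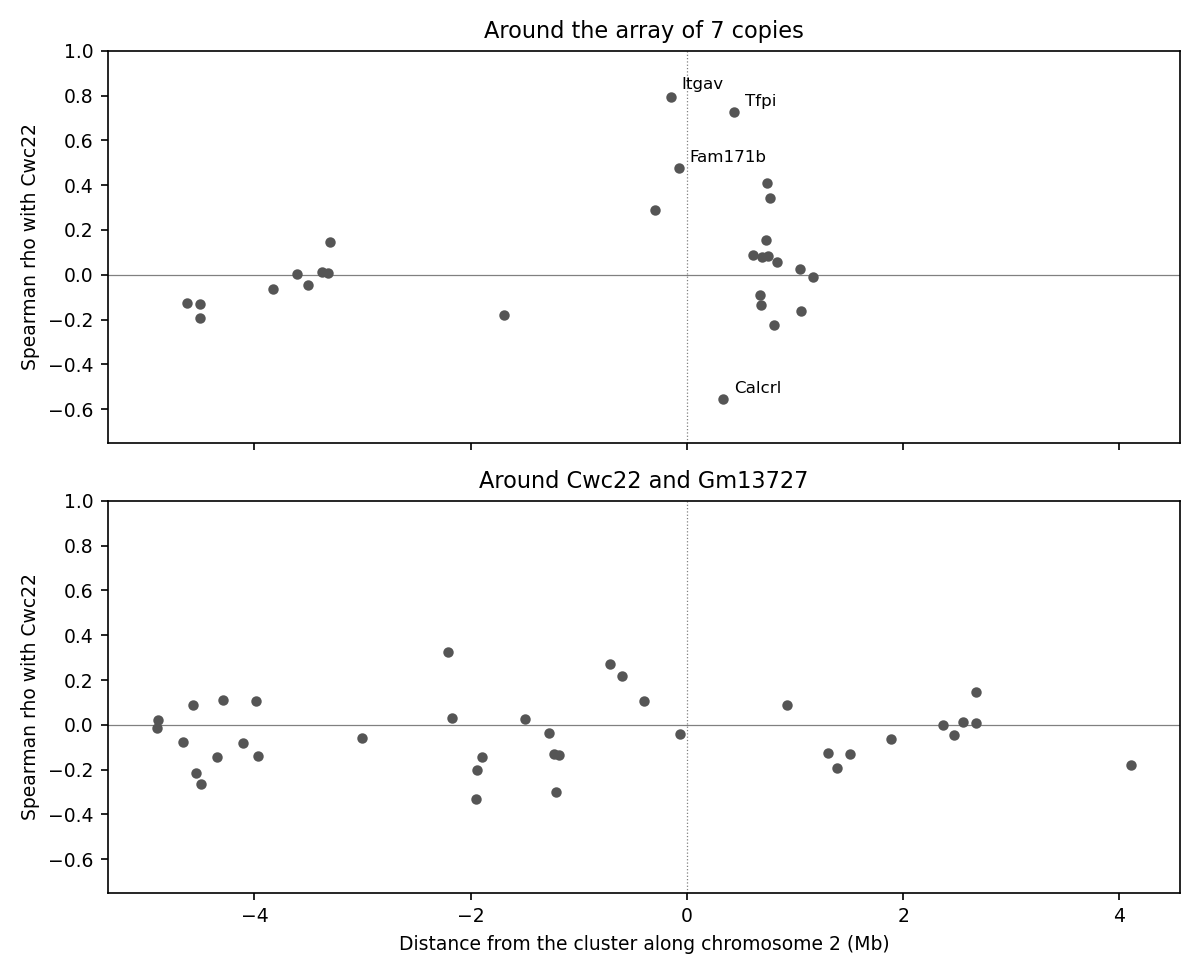
Spearman rho with Cwc22 over 62 libraries (deviations from the 12 group means) for each tested symbol within 5 Mb, against its distance in Mb from the array of copies (top) and from Cwc22 and Gm13727 (bottom). Itgav (0.79), Tfpi (0.73) and Calcrl (-0.55) stand within 1 Mb of the array.

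Among the 10 symbols with the largest absolute rho with Cwc22, 6 were on chromosome 2, and among the 50 largest it was 18 of the 46 with coordinates, where 8.16% of tested symbols with coordinates are on that chromosome. Apart from the neighbours, the closest by rho were Mtch2, a mitochondrial outer membrane protein gene on chromosome 2 (0.50), and Mocs2, a molybdenum cofactor synthesis gene on chromosome 13 (0.46). In the other direction stood Gm13767 on chromosome 2 (-0.54), Wfs1, an endoplasmic reticulum membrane protein gene (-0.54), Nkain1 (-0.51) and Tgfa, a growth factor of the EGF family (-0.50). By the number of libraries on matching sides, Nkain1, Stard9 and Acsl4 followed Itgav and Tfpi with 52 of 62 each, in opposite orientation. On raw levels the rho of most of these was nearer 0, at 0.372 for Mtch2, -0.319 for Gm13767, -0.417 for Wfs1, -0.286 for Nkain1, -0.368 for Tgfa and -0.251 for Stard9, whereas Mocs2 had 0.523 and Acsl4 -0.332. Since 48 of 62 libraries are low in Cwc22, even a gene with nothing in common with it can match on many. With the summed level of the 8 other members, Itgav had 0.81 and Tfpi 0.76, and the symbols named in addition were A830080D01Rik (0.42), Cyp46a1 (-0.48) and Tgm5 (-0.48). With Cwc22 on raw levels these had 0.308, -0.40 and -0.26 in that order.

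Itgav and Tfpi were also taken to the study's comparisons. They were singled out here because they follow the split of Cwc22 in these same libraries, which the treatments do not share evenly. Their p-values are therefore printed as a description, and no effect of treatment is read from them. Itgav averaged 31.3 ± 5.86 TPM in CAC (SD, n = 22), 31.5 ± 6.87 in NCAC (SD, n = 20) and 26.9 ± 2.14 in mock (SD, n = 20). Its log2 fold change was 0.19 ± 0.07 (SE) in CAC against mock, with a limma adjusted p of 0.0548. In NCAC against mock, where 0 of 14399 symbols were called, it was 0.19 ± 0.07 (SE), with an adjusted p of 0.9996. The unadjusted limma p was 0.0131 in CAC against mock and 0.0108 in NCAC against mock. In a fit of the CAC and mock groups alone, the limma adjusted p of Itgav for CAC against mock became 0.0219. In the other settings that kept all libraries it stayed above 0.05. It was 0.0872 with no filter, 0.0944 with median-of-ratios scaling, 0.1002 with quantile normalization and 0.0969 with the replicate block. With a pseudocount of 0.1 it was 0.0549, and with a mean of at least 5 TPM it was 0.0513. Tfpi averaged 3.02 ± 0.795 TPM in CAC (SD, n = 22), 3.11 ± 0.961 in NCAC (SD, n = 20) and 2.48 ± 0.571 in mock (SD, n = 20). Its log2 fold change was 0.20 in CAC against mock (limma adjusted p = 0.0765) and 0.22 in NCAC against mock (limma adjusted p = 0.9996). Unadjusted, the limma p of Tfpi was 0.0212 in CAC against mock and 0.0141 in NCAC against mock. High-Cwc22 libraries were 5 of 22 in CAC, 8 of 20 in NCAC and 1 of 20 in mock, and their part in these differences was not tested.

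The genes that work with Cwc22 were described from 4 lists of 53 genes, all of which were tested. They hold the core of the exon junction complex, its peripheral factors, nonsense-mediated decay and the catalytic spliceosome. Their rho with Cwc22 ran from -0.346 for Upf3a to 0.299 for Upf2, both decay factors, and 1 of 53 had an absolute value of at least 0.3. Their spread within groups was small, with a median standard deviation of 0.0767 on the log2 scale and a highest of 0.279 for Magohb, a core subunit. Upf2 averaged 39.0 ± 2.61 TPM in CAC, 36.5 ± 1.22 in NCAC and 37.1 ± 1.11 in mock (SD, n = 22, 20 and 20).

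In CAC against mock over the mean of 4 weeks, limma called 13 of the 53 (24.5%), 12 higher and 1 lower, beside 23.0% of all symbols, and their median log2 fold change was 0.027 beside 0.019 for all symbols. With median-of-ratios scaling the calls were 7 higher and 3 lower. The core complex had 0 of 5 called, the peripheral factors 1 of 8, decay 3 of 12 and the catalytic spliceosome 9 of 28. Syf2, a spliceosome factor, had a mean of 82.9 ± 4.75 TPM in the 22 CAC libraries, against 77.3 ± 2.88 TPM in the 20 mock libraries (SD), a log2 fold change of 0.09 ± 0.02 (SE; limma adjusted p = 0.000282). Cwc27, a spliceosome-associated protein of the cyclophilin family, rose by 0.13 on the log2 scale (limma adjusted p = 0.00109). Smg6, the endonuclease of the decay pathway, rose by 0.08 (limma adjusted p = 0.00149). Upf2 (0.07, limma adjusted p = 0.0122) and Ddx39b, an RNA helicase of mRNA export (0.06, limma adjusted p = 0.0396), were called here but not under median-of-ratios scaling, where their adjusted p was 0.0569 and 0.106. Of the others named by rule, Nxf1 (0.06), Rbm8a (0.05) and Magohb (0.17) did not pass. The value of Cwc22 in the same comparison, 0.89 ± 0.58 (SE), did not pass the threshold and is not of like kind. Cwc22 was high in 5 of 22 CAC and 1 of 20 mock libraries, with medians of 13.99 TPM in CAC and 12.81 TPM in mock.

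The labelled tissue was checked against its markers. All 7 granule cell, 6 Purkinje cell, 4 Bergmann glia and astrocyte and 4 oligodendrocyte markers had a mean of at least 1 TPM, whereas 1 of 4 forebrain and 1 of 5 melanocytic markers did. Choroid plexus markers summed to 17.1 to 6948 TPM in CAC, 10.9 to 6505 TPM in NCAC and 19.8 to 6338 TPM in mock. Red blood cell markers summed to 128 to 20330 TPM in CAC, 718 to 4000 TPM in NCAC and 680 to 4011 TPM in mock, so that both extremes were in CAC libraries, and the rho of their sum with Cwc22 was -0.000982. The rho of a list's sum with Cwc22 ran from -0.212 for choroid plexus to 0.0506 for Purkinje cells, and no marker was at 0 in every library. In bulk tissue, fewer cells of a type and less RNA per cell cannot be told apart.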

How the data were processed

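The authors deposited one table of TPM values per gene symbol for the 62 libraries, made on the mm10 build per the submitters' processing notes; which aligner and quantifier were used is not given in the sources used here. Per the labels' protocols, a stranded mRNA kit was used. Groups and replicates come from the sample descriptions; a treatment field that names cachectic cells for every sample was not used. The TPM of each library sum to 1000000 and carry no depth.

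The members, lists and tests were chosen with earlier results of these data known. From the deposited TPM values, limma 3.58.1 in R 4.3.3 was fitted to log2(TPM + 1) for 14399 symbols with a mean of at least 1 TPM, over all 12 groups (50 residual degrees of freedom), with a trended variance and an adjusted threshold of 0.05; it was tested on simulated data. Separate levels are sides of the widest gap in log2(TPM + 1) that leaves at least 4 libraries on each side. Likeness used scipy 1.17.1. Coordinates and transcripts are GENCODE M21; Biopython 1.88 aligned the transcripts. RefSeq gene types are from GRCm38.p6.

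Named by rule were the 9 members, the 5 symbols with the most libraries on matching sides, the 5 highest and 5 lowest in rho with Cwc22 and with the sum of the other 8, the nearest and the 3 most alike neighbours, and up to 2 genes with the smallest p of each splicing list. Agps, Hnrnpa3 and Upf3a were named after their values were seen. Lrrc55 was named for its place as the farthest tested symbol after the array within the window.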

Additional observations from a re-analysis of the deposited data

Results flagged for a closer look

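The highest or lowest library was set apart by its gap to the rest, relative to the range of its group, in 11 of 23 groups, 12 for Cwc22 and the others for the sum of the 8 other members where it varied. Chance sets apart about 5% of groups under this rule, but the members were chosen because their libraries fall into separate levels, so the values restate that choice and are given as a description only. For Cwc22 these were CAC at 2 wk replicate 1 with 221.0 TPM, NCAC at 2 wk replicate 1 with 536.9 TPM, CAC at 4 wk replicate 4 with 377.0 TPM, CAC at 8 wk replicate 6 with 221.1 TPM and mock at 8 wk replicate 1 with 281.3 TPM. For the sum of the 8 other members they were the same libraries, with 147.2, 358.0, 259.6, 147.9 and 191.1 TPM in that order. These are the groups that hold a single high library; groups with more than 1 are not reached by a rule on single values. The sum in mock at 2 wk replicate 4 was also apart, at 0.2225 TPM, where the other libraries of the group were at 0.0363 TPM or below.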

How the results depend on the processing

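The count of 0 members called held in every one of the 11 comparisons with a pseudocount of 0.1, with no filter, with a mean of at least 5 TPM (which drops Gm13727 and Gm13695), with median-of-ratios scaling, with quantile normalization, with only the groups compared and with each library left out (range 0 to 0). With the replicate block the members called were also 0, and the splicing calls were 12. No label says that equal replicate numbers mark a shared animal or batch. Same-numbered libraries deviated together with a correlation over 0.1 in 2 of 20 pairs of CAC and mock, 4 of 20 of NCAC and mock and 10 of 20 of CAC and NCAC (highest 0.396). Libraries of unlike number were not compared, so these values cannot show whether the numbers mark a shared batch. For want of a label, the numbers were not taken to pair the libraries. The 14 libraries above the gap were the same in number for every member with a pseudocount of 0.1, median-of-ratios scaling and a smallest side of 2 or 8 libraries. Calls of the splicing lists in CAC against mock were 8 with quantile normalization (5 higher, 3 lower), beside 13 as reported, and ran from 10 to 18 with a library left out. Median-of-ratios scaling and quantile normalization put 49.4% and 44.4% of all calls in CAC against mock on the higher side, beside 70.9% as reported; the cause was not tested. With raw levels in place of deviations from group means, the rho with Cwc22 moved by over 0.1 for 13 of 15 named symbols and changed sign for 0. A pseudocount of 0.1 gave fold changes over 1.5 times larger for Gm13698 and, with 1.06, 1.88 and -0.82, for Gm13727 in CAC against mock, NCAC against mock and CAC against NCAC. Itgav in CAC against mock passed the threshold in 8 of 42 fits without 1 library, and Tfpi in 1. Both were picked for their likeness to Cwc22, so these counts are a description only. The unknown depth and the shared sequence of the members limit every single-gene level.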
